A study of Mus musculus with 8 samples.

Results

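The numbered zinc finger (Zfp) genes of the mouse were examined for N6-methyladenosine (m6A), a methyl mark on adenosines inside messenger RNA. Members were the protein-coding genes of the GENCODE M21 annotation (build GRCm38) whose symbol is Zfp followed by digits only and whose exons held at least 1 peak summit in any of 4 lists of m6A peaks. Of 365 such genes in the annotation, 257 met this rule, among 5583 protein-coding genes with a summit in the series. Members were thus chosen by the presence of a called summit, so membership and its share are descriptions. Where the summits lay in the transcript, how strong they were within a list and whether they changed between the short hairpin RNAs did not enter the rule.

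The data came from primary vascular smooth muscle cells (VSMCs) of the descending aorta of adult C57BL/6J mice. The cells were transduced with lentivirus that expressed a nontargeting control hairpin (shCTR) or a hairpin against Mettl14 (shMettl14), which encodes a subunit of the complex that writes m6A. RNA of replicates A and B of each hairpin was fragmented and sequenced before (input) and after (IP) pulldown with an anti-m6A antibody, which gave 4 IP and 4 input samples and 1 peak list for each IP sample. The cells were cultured and passaged, the knockdown rested on 1 hairpin, and nothing in the sources used here says whether A and B were separate isolations, so any p-value measures only the spread between these samples.

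Most Zfp genes encode C2H2 zinc finger proteins, in which repeated small domains, each folded around a zinc ion, line up in an array that reads DNA. Many carry in addition a KRAB domain, which recruits a corepressor complex, and silence transposable elements. Their finger arrays are usually encoded in 1 long last exon, and neighbouring fingers are joined by a conserved linker peptide of threonine, glycine, glutamate, lysine and proline. m6A is written in the sequence context DRACH, where D stands for any base but C, R for a purine and H for any base but G, and in most transcripts it is known to be frequent in long internal exons and around the stop codon.

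The lists held 8655 to 13675 summits with a median of 13 to 16 overlapping IP fragments (pileup) per summit. Mettl14 itself had no summit in any list, and the lists hold no RNA level of a gene, only a background at called summits. The knockdown was therefore not checked here, and a loss of m6A cannot be told apart from a loss of RNA. In a culture, fewer cells of a type and less RNA per cell cannot be told apart either. Summits were found in 2 or 3 of 8 smooth muscle marker genes in each list and in all 4 lists in Cald1 and Lmod1, but also in 2 or 3 of 5 endothelial markers in each list, with Pecam1 and Cdh5 in all 4. Fibroblast markers had a summit in 2 of 4 genes in every list, Pdgfra and Col1a1, and macrophage markers in 0, 0, 0 and 1 of 5 genes. The part of other cell types in the Zfp results was not tested.

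Sequences are shown first, because both the position of the summits and the DRACH 5-mers near them recur in the results. Each is 30 bases of the GRCm38 genome written 5′ to 3′ on the strand of the gene, with the DRACH 5-mer in capitals that lies nearest to the gene's top summit, the one that ranked highest by fold enrichment within its own list (percentile, all 4 lists searched). Zfp703 and Zfp503 are paralogous corepressors with the top summits close to their stop codons, Zfp282 is a finger protein with the top summit in the 3′ UTR, and Zfp462, Zfp646 and Zfp292 are long finger proteins with many summits.
Zfp703, chr8:26980080-26980109, plus strand: cttggataccagTAACCacagctctggccc
Zfp503, chr14:21984902-21984931, minus strand: acggacagagacTGACCactgcctccgcac
Zfp282, chr6:47905612-47905641, plus strand: aaggtcccagagGGACAgcaaggcagcagg
Zfp462, chr4:55080894-55080923, plus strand: caaaccttacttGAACCgtgatgaaaatgt
Zfp646, chr7:127878988-127879017, plus strand: gaccatggctacTGACTcctggggtcagag
Zfp292, chr4:34811549-34811578, minus strand: ctttctgctgctGGACTtggtactgattct
The 5-mer lay 20 nt from this summit in Zfp703, 10 nt in Zfp503, 1 nt in Zfp282, 5 nt in Zfp462, 30 nt in Zfp646 and 0 nt in Zfp292. A 5-mer near a summit is a match of letters, not a mapped methylated base.

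The linker between fingers is shown for Zfp40, a C2H2 gene on chromosome 17 with 16 fingers, because all 11 of its exact linkers hold the DRACH 5-mer AAACC in the codons for lysine and proline. It was chosen as the gene with the most such linkers among members with a summit inside the array in every list, where Zfp960 tied with it at 11 of 11 and Zfp40 was taken as the first by name. These are 4 of the 11, in the order of the transcript.
Zfp40, linker at chr17:23176262-23176291, minus strand: catactggagagAAACCttacaaatgcagt
Zfp40, linker at chr17:23176010-23176039, minus strand: cacacaggagagAAACCttacaaatgtagt
Zfp40, linker at chr17:23175842-23175871, minus strand: catacaggagaaAAACCttacaaatgcagt
Zfp40, linker at chr17:23175758-23175787, minus strand: catactggagagAAACCttacaaatgtgaa
The 5-mer of the last of these lay 1 nt from a summit of shMettl14 B, and that of the first of these lay 456 nt from the nearest summit inside the array. Zfp40 had 2 summits in each of the 4 lists.

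Summits of Zfp genes numbered 491 and 372 in shCTR A and B, and 591 and 413 in shMettl14 A and B. Each replicate A list was above its B list, and the hairpins overlapped. These were 4.40, 4.30, 4.32 and 4.46% of all summits of the lists in the same order. The ratio of the means of shMettl14 to shCTR was 1.16, with means of 432 ± 84.1 and 502 ± 126 summits (SD, n = 2), and the two-sided exact permutation test gave p = 0.667, with 0.333 as the smallest p that 2 lists against 2 allow. Without shMettl14 A the ratio was 0.957, and with the same number of top peaks in every list it was 0.982, so the direction rested on the list with the most peaks.

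Of the 257 genes, 156 (60.7%) had summits in all 4 lists, as did 62.8% of the 5326 other genes with a summit. Zfp summits were present in 3 lists in 33 genes, in 2 lists in 40 and in 1 list in 28. A total of 24 genes rested on a single summit over all lists. The weakest of these were Zfp383 (fold enrichment 3.74 in shMettl14 B), Zfp759 (3.77 in shMettl14 A) and Zfp788 (3.798 in shMettl14 B), each with a pileup of 3 fragments. Of the 108 genes outside the rule, 3 had a summit in an intron and 0 had a peak interval on an exon, so no gene was left just outside by the choice of summit over interval. Zfp423, which directs cells to the fat lineage, was outside with 0 exonic summits, whereas its paralog Zfp521 had 8 or 9 in every list.

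The authors kept uniquely mapped reads only, so sequence shared with other genes was counted. In members, a median of 0.123% of the 50-mers of the transcript recurred in a transcript of another annotated gene of any kind. However, 42 members (16.4%) had over 10% and 13 had over 50%. The 42 genes had 1.20 summits per gene and list, and the other 214 with a complete coding transcript had 1.94. Of the genes outside the rule, 32 of 106 (30.2%) had over 10%. Zfp960 and Zfp97 on chromosome 17 had summits in all 4 lists despite 84.5% and 83.1% of shared 50-mers. The part of mappability in these counts was not tested.

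The transcripts of the 256 members with a complete coding transcript had a median coding length of 1771.5 nt, of which a median of 85.6% lay in the last exon, and 206 had over 50% there. The median number of C2H2 fingers was 11 and the highest was 36, in Zfp142. A total of 7 members matched no finger pattern, among them Zfp36, the RNA-binding CCCH protein tristetraprolin that destabilises AU-rich messenger RNAs, and the corepressors Zfp503 and Zfp703. Longer members held more summits. The 64 genes with the shortest coding sequence (453 to 1479 nt) had 1.13 summits per gene and list, and the 64 with the longest (2133 to 8097 nt) had 2.93. Per kilobase of transcript the difference was smaller, with 0.356 and 0.512 summits per list.

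Among genes with the strongest summits, ranked by the mean within-list percentile of their highest fold enrichment, Zfp703 was first. Its highest fold enrichments were 25.8, 26.01, 25.8 and 32.5 in shCTR A, shCTR B, shMettl14 A and shMettl14 B, with pileups of 54, 64, 48 and 45 fragments. Every list placed it above the 99th percentile.

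Zfp282 followed with 25.3, 26.3, 28.1 and 26.9, and Zfp503 with 26.4, 27.6, 23.4 and 25.8 in the same order. Zfp827, which acts on telomere chromatin and has 9 fingers, had 24.9, 30.6, 22.3 and 24.9. These 4 genes lay so close that their order is not separated by the spread between lists. Zfp651 reached 22.5, 19.5, 16.7 and 18.9, and Zfp777, a KRAB finger protein, 23.7, 23.5, 17.8 and 15.8. In Zfp503, Zfp651 and Zfp777 both shMettl14 values lay below both shCTR values, in Zfp282 they lay above them, and in Zfp703 and Zfp827 the hairpins overlapped. These highest summits helped to choose the genes and were not tested one by one.

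The genes with the most summits were another set. Zfp462, a protein of 33 fingers tied to heterochromatin, had 9, 6, 11 and 9 summits in shCTR A, shCTR B, shMettl14 A and shMettl14 B, and Zfp521 had 9, 8, 9 and 9. Zfp646 had 7, 6, 13 and 8, and all of them lay in its coding exons before the last. Zfp292 had 8, 5, 10 and 6, all in the coding sequence of the last exon, which holds 87.5% of its coding length. Zfp516, a regulator of brown fat genes, had 6, 8, 11 and 4, and Zfp407 had 8, 5, 8 and 5. The genes named in this paragraph have coding sequences of 3474 to 8097 nt and 0 to 3 exact linkers, and only in Zfp646 were both shMettl14 counts above both shCTR counts.

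**Figure D1:**
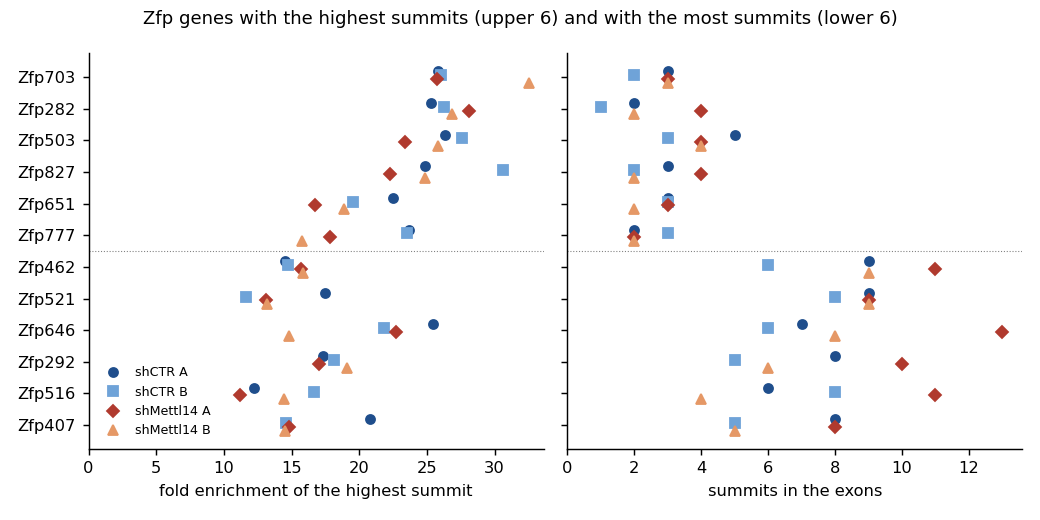
Highest fold enrichment (left, ratio of IP pileup to background) and number of exonic summits (right) in each of the 4 lists for the 6 Zfp genes with the highest mean percentile (upper rows) and the 6 with the most summits (lower rows). Zfp703 reached 25.8 to 32.5-fold with 2 or 3 summits, whereas Zfp646 reached 13 summits in shMettl14 A.

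Of genes picked for their roles, Zfp281, a GC-box factor of pluripotent cells, had 7, 4, 5 and 5 summits, all in the coding sequence of its last exon, and its paralog Zfp148 had 4, 3, 3 and 3. Zfp91, a ubiquitin ligase, had 1, 1, 2 and 2 summits, with fold enrichments up to 23.4, 12.7, 20.8 and 26.3. Zfp217, part of repressor complexes and amplified in tumours, had 2, 2, 5 and 1. Zfp106, an RNA-binding protein of motor neurons, had 6, 3, 6 and 5, all in coding exons before the last. Zfp609, linked to myoblast growth, had 4, 5, 8 and 7.

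Zfp36 had 2, 2, 2 and 1 summits, all in the coding sequence of its last exon, with highest fold enrichments of 10.6, 4.75, 6.63 and 5.36. Zfp143, a promoter-binding factor, had a summit in shCTR A and shMettl14 B only, Zfp384 in shCTR B and shMettl14 A only, and Zfp207, a spindle assembly factor, in shCTR A only, with pileups of 7 to 11 fragments.

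To determine where in the transcripts the mark lay, summits were placed in 1 coding transcript per gene, which held 470, 356, 565 and 394 Zfp summits in the 4 lists. The coding sequence of the last exon took 57.4 and 56.5% of them in shCTR A and B, and 56.6 and 56.1% in shMettl14 A and B. The 4 lists lay close together. Summits spread evenly over the same transcripts would put 31.4% there. Of the summits of all other protein-coding genes, 31.3% ± 0.806 (SD, n = 4 lists) lay in this part, which takes 15.2% of their length. The difference was 25.4 ± 1.10 points (SD, n = 4), higher in 4 of 4 lists, with p = 0.125 in a two-sided exact permutation test by sign flips over lists, the smallest p that 4 lists allow.

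The ratio of summits to length in this part was 1.80 in Zfp genes and 2.07 in other genes. Among the 1553 other genes that carry at least 1000 nt of coding sequence in the last coding exon, other zinc finger families left out, 69.4% of summits lay in the coding last exon with a ratio of 1.79. In other zinc finger families it was 67.8%, with a ratio of 2.18. The Zfp share was 12.7 and 11.2 points below these, in 4 of 4 lists (p = 0.125 for each, exact permutation test by sign flips).

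The 3′ UTR took 18.7, 18.3, 18.4 and 21.1% of Zfp summits in shCTR A, shCTR B, shMettl14 A and shMettl14 B against 39.7% of length, and 31.9% of the summits of other genes against 38.5%. The groups most like Zfp genes were at least as low for their length, with 14.6% against 34.4% in other genes with a long last coding exon and 15.8% against 49.5% in other zinc finger families, so the ratio of summits to length was 0.48 in Zfp genes and 0.42 and 0.32 in these groups. Coding exons before the last held 22.7% against 21.6% of length, and the 5′ UTR 1.55% against 7.27%. Between hairpins the share in the coding last exon differed by −0.589 points (p = 0.667) and that in the 3′ UTR by 1.25 points (p = 0.667, exact permutation tests of 2 lists against 2).

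**Figure D2:**
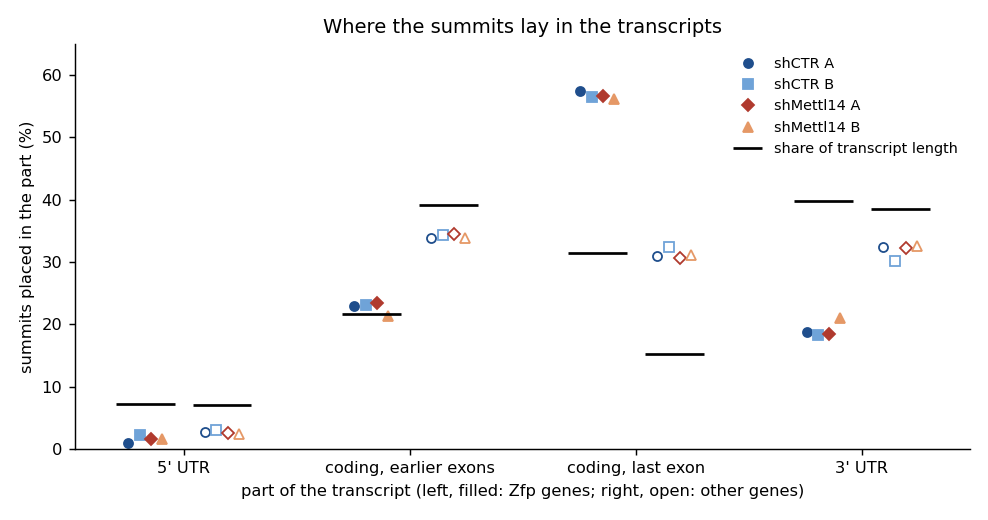
Share of summits in each part of the transcript for Zfp genes (filled symbols, left of each pair) and other genes (open symbols, right), 1 symbol for each list. Black bars give the share of transcript length in that part, the value for evenly spread summits. The coding sequence of the last exon held 56.1 to 57.4% of Zfp summits against 31.4% of length.

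Around the stop codon, Zfp summits were less concentrated than those of other genes. Within 200 nt of it lay 20.6, 21.6, 18.4 and 20.1% of Zfp summits and 27.1, 27.1, 25.8 and 27.5% of those of other genes, in shCTR A, shCTR B, shMettl14 A and shMettl14 B. The Zfp value was lower in 4 of 4 lists, by 6.70 ± 0.946 points (SD, n = 4, p = 0.125, exact permutation test by sign flips). Evenly spread summits would put 9.61 to 9.74% there in Zfp genes, so their summits exceeded an even spread 1.90 to 2.22 times. Against other genes with a long last coding exon, 20.1% of whose summits lay in this window, the difference was 0.122 ± 2.46 points, higher in 2 of 4 lists (p = 1, same exact permutation test). Summits of that group exceeded an even spread 2.25, 2.09, 2.35 and 2.47 times, against 2.14, 2.22, 1.90 and 2.09 times in Zfp genes, in the same order of lists. Against other zinc finger families, with 22.9%, the Zfp share was lower in 4 of 4 lists, with a difference of −2.67 ± 1.88 points (p = 0.125, same exact permutation test), and summits of those families exceeded an even spread 2.54 to 2.97 times. Between hairpins the Zfp share differed by −1.90 points (p = 0.333, exact permutation test).

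**Figure D3:**
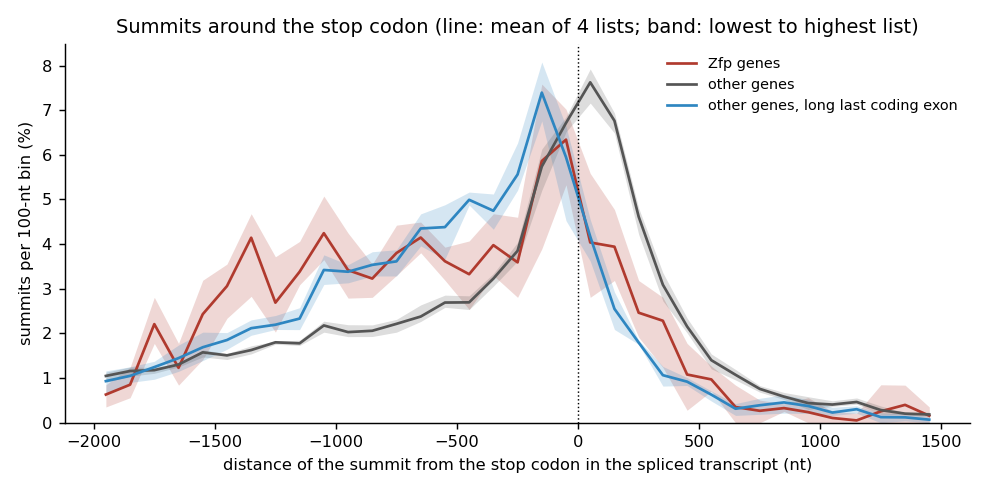
Share of summits in each 100-nt bin by distance from the stop codon in the spliced transcript (negative values lie in the coding direction upstream), for Zfp genes, other genes, and other genes with a long last coding exon. Lines are means of the 4 lists and bands span the lowest to the highest list. Within 200 nt of the stop codon lay a mean of 20.2% of Zfp summits and 26.9% of those of other genes.

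The finger array was then examined in the 244 members with at least 2 fingers. The array, from the start of the first finger to the end of the last, held 48.05, 48.05, 52.6 and 46.3% of their summits in shCTR A, shCTR B, shMettl14 A and shMettl14 B. It takes 32.9, 33.3, 34.0 and 33.9% of the length of the same transcripts. The difference was 15.2 ± 2.52 points (SD, n = 4 lists, higher in 4 of 4, p = 0.125, exact permutation test by sign flips). Where fingers are scattered, this span also holds the sequence between them, as in Zfp106 (3 fingers over 5511 nt) and Zfp292 (14 over 5454 nt). The array values are therefore those of the span, not of the fingers alone. Coding sequence before the array was also above its length, with 21.6% of summits against 15.7%, and the short coding stretch after the array was the most dense, with 9.06% against 3.77%, a ratio of 2.40. When each array was divided into 3 equal parts from its 5′ end, 28.9, 32.1 and 39.0% of the summits inside it fell in them. Summits were thus above an even spread in all 3 coding stretches, and the array itself, with a ratio of 1.45, was not the highest of them.

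The DRACH 5-mers around Zfp summits differed from those of other genes. AAACC lay within 50 nt of 27.7, 25.6, 28.0 and 28.2% of Zfp summits, and of 10.4, 9.69, 10.7 and 10.3% of summits of other genes, in the 4 lists. The difference was 17.1 ± 0.854 points (SD, n = 4 lists, higher in 4 of 4, p = 0.125, exact permutation test by sign flips). GGACT, the 5-mer with the highest ratio of summits to positions in other genes (2.01), ran the other way. It lay within 50 nt of 13.8, 14.3, 13.3 and 14.7% of Zfp summits and of 22.5, 24.1, 20.1 and 22.6% of those of other genes, lower in 4 of 4 lists by 8.27 ± 1.27 points (p = 0.125, same exact test). Other zinc finger families lay on the same side of other genes for both 5-mers, with means of 18.5% for AAACC and 11.4% for GGACT. The Zfp value was above theirs in 4 of 4 lists for each 5-mer, by 8.82 ± 2.25 points for AAACC and 2.65 ± 2.50 points for GGACT (SD, n = 4, p = 0.125 for each, same exact permutation test). Any DRACH 5-mer was present within 50 nt of 96.8% of Zfp summits and 95.7% of those of other genes. Only the transcript strand was searched, and windows with both 5-mers count for each.

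The transcripts themselves differed in the same 5-mers. Over all positions of the same Zfp transcripts, 18.9% had AAACC and 9.24% had GGACT within 50 nt, against 9.90 and 11.1% in other genes. Zfp summits exceeded their own positions 1.44 times for AAACC and 1.52 times for GGACT, and the highest ratios were 1.76 for AGACT and 1.68 for GAACT. In other genes the ratio was 1.04 for AAACC, 1.73 for AGACT and 1.72 for GAACT. Exact linkers numbered 1179 in 200 transcripts, and 708 of them (60.1%) held AAACC. In the 244 transcripts with an array, 1298 of 2392 AAACC 5-mers (54.3%) lay in the array, which makes up 29.8% of their length, and 80.7% of those were read in the lysine and proline frame. The density was 4.32 per kilobase in the array and 1.55 outside.

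Inside the arrays, however, summits were not nearer to AAACC than other positions were. AAACC lay within 50 nt of 35.9, 31.3, 34.3 and 34.7% of summits in the array and of 33.0, 34.6, 34.5 and 35.7% of all array positions of the same transcripts, in shCTR A, shCTR B, shMettl14 A and shMettl14 B. The difference was −0.398 ± 2.56 points (SD, n = 4), higher in 1 of 4 lists, with p = 0.625 in the same exact test. The other 4 DRACH 5-mers examined within the array were above its positions in 4 of 4 lists. AAACT lay near 18.8% of summits against 12.02% of positions, GAACT near 17.6% against 10.7%, AGACT near 15.5% against 10.6%, and GGACT near 9.19% against 7.56%. Over whole transcripts, Zfp summits, those in the array included, already exceeded positions 1.57, 1.68, 1.76 and 1.52 times for these 5-mers in the same order. DRACH 5-mers other than these and AAACC were not examined within the array, so these values are given without a test.

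Zfp genes with many linkers differed from those with few. Of the 256 members, 122 had 5 or more exact linkers and 134 had fewer, with nearly equal median coding lengths of 1762.5 and 1785 nt. Genes with many linkers had 1.40 summits per gene and list, and 64 of them (of 122) were found in all 4 lists. Genes with few had 2.20, and 91 of 134 were found in all 4. Per kilobase of transcript the values were 0.385 and 0.476 summits per list.

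The median within-list percentile of fold enrichment was 42.5, 37.0, 42.9 and 32.2 for genes with many linkers, in shCTR A, shCTR B, shMettl14 A and shMettl14 B, and 51.6, 58.6, 56.3 and 53.1 for genes with few. The classes did not overlap. The median pileup was 8.25 ± 0.957 against 14 ± 1.63 fragments and the median background 0.287 against 0.707 fragments (means of 4 lists). The coding sequence of the last exon held 77.3% ± 1.95 of the summits of genes with many linkers (45.3% of length) and 44.4% ± 1.76 of those of genes with few (23.1% of length). The cut of 5 linkers was chosen with results of these data known, so these class values are given without a test.

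**Figure D4:**
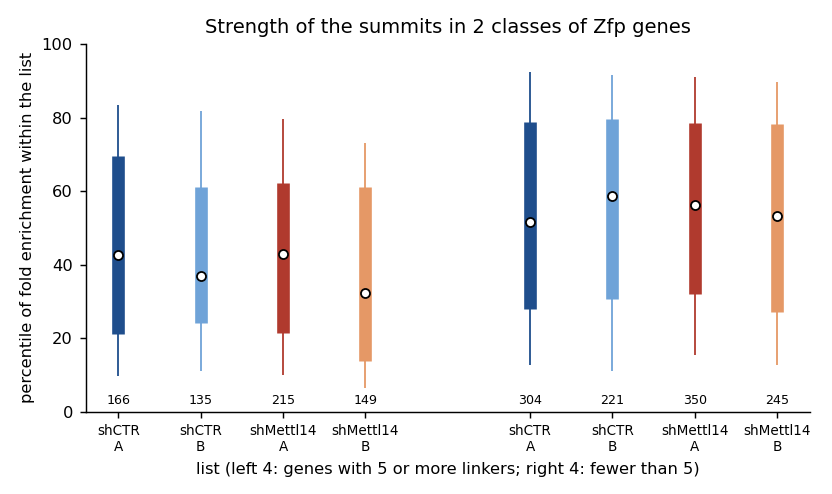
Percentile of fold enrichment within each list for summits of Zfp genes with 5 or more linkers (left 4) and fewer (right 4). Dots are medians, thick bars the middle 50% of summits, thin lines the 10th to the 90th percentile, and the figures at the bottom the number of summits. Medians were 32.2 to 42.9 in the first class and 51.6 to 58.6 in the second.

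The 110 members with a KRAB pattern anywhere in the translated protein overlapped with this class. They had 75.9% ± 2.17 of summits in the coding last exon, against 46.2% ± 1.011 in the 146 without it (means of 4 lists ± SD). The median percentile of fold enrichment was lower with the pattern in 3 of 4 lists (means 44.6 ± 5.89 and 50.3 ± 1.63), but not in shCTR B, where it was 52.13 with the pattern and 52.01 without. Of 14 genes for the corepressor complex that KRAB proteins recruit, 3 had summits, the same 3 in all 4 lists, a share near the 24.7% of all other protein-coding genes with a summit in any list. Setdb1, the histone H3 lysine 9 methyltransferase, had 2, 2, 2 and 1, its partner Atf7ip had 2, 2, 3 and 2, and Morc3 had 1, 1, 2 and 2. Trim28, the scaffold of the complex, had none.

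As a family, Zfp summits were of middling fold enrichment and low pileup. The median percentile of fold enrichment was 48.9, 52.1, 48.7 and 44.8 in shCTR A, shCTR B, shMettl14 A and shMettl14 B, against 52.7, 52.96, 52.7 and 53.4 for other genes. Zfp genes were lower in 4 of 4 lists, by 4.37 ± 3.22 percentile points (SD, n = 4, p = 0.125, exact permutation test by sign flips). By pileup the gap was 20.9 ± 2.90 percentile points. The median background at Zfp summits was 0.627, 0.562, 0.525 and 0.336 fragments, and at those of other genes 1.13, 1.12, 1.05 and 0.724. Other zinc finger families were above other genes by fold enrichment, with a mean median percentile of 55.6, and Zfp genes were lower than these families in 4 of 4 lists, with a difference of −7.03 ± 4.32 percentile points (p = 0.125, same exact permutation test). They were close to Zfp genes by background, with 0.647, 0.562, 0.601 and 0.344 fragments, and lay between by pileup, with a mean median percentile of 44.04 against 35.3 in Zfp genes and 56.2 in other genes. A pileup of 10 or fewer was found at 39.5, 38.2, 45.3 and 52.1% of Zfp summits, against 27.7, 27.5, 32.04 and 36.1% of each whole list. A background equal to the smallest of the list, which the caller sets where the input holds little, applied to 3.14% ± 1.81 of Zfp summits and 1.40% ± 0.468 of those of other genes (difference 1.74 ± 1.35 points, higher in 4 of 4 lists, p = 0.125, same exact permutation test), and the difference was 1.14 points without shCTR A.

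To determine whether Zfp peaks came or went with Mettl14 knockdown, the intervals of the 4 lists were merged into 11361 regions, 514 of them with a Zfp summit. Of the Zfp regions, 228 (44.4%) were found in all 4 lists, as were 43.4% of all regions. Found in both shCTR lists and in neither shMettl14 list were 8 Zfp regions (1.56%), against 1.71% of all regions. The opposite pattern held for 11 (2.14%), against 1.79% of all. Both shares were near those of all regions. With the same number of top peaks in every list the counts were 15 (3.58%, against 3.64% of all regions) and 1 (0.239%, against 1.03%). With a stricter q-value they were 13 (2.99%, against 2.40%) and 5 (1.15%, against 1.61%). The order of the counts turned in both, and it turned over all regions too.

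The shCTR regions lay in Zfp26, Zfp868, Zfp407, Zfp865, Zfp606, Zfp608, Zfp281 and Zfp445, the last an imprinting factor. The strongest of them, in Zfp26 (chr9:20436491-20436681), had fold enrichments of 8.50 and 8.73 from 13 and 11 fragments in shCTR A and B. The shMettl14 regions lay in Zfp27, Zfp182, Zfp606, Zfp41, Zfp59, Zfp111, Zfp629, Zfp952, Zfp85, Zfp715 and Zfp748. The strongest, in Zfp27 (chr7:29894759-29894953), had 7.21 and 7.49 from 10 and 9 fragments in shMettl14 A and B. Zfp606 held 1 region of each kind, at chr7:12492508-12492948 and chr7:12493624-12493737. None of the 19 regions had a pileup above 19 fragments, and at these pileups a region missing from a list is not shown to be unmethylated.

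For regions found in all 4 lists, fold enrichments were ranked within each list, turned into normal scores and compared between hairpins with limma over all 4929 regions. None of the 228 Zfp regions passed an adjusted p of 0.05, and 0% of all regions did. The smallest limma adjusted p, over all regions and over Zfp regions alike, was 0.796. At an unadjusted limma p under 0.05 there were 20 Zfp regions (8.77%), 8 higher and 12 lower in shMettl14, against 243 (4.93%) of all regions. By ranks of recovered pileup the number was 13 (5.70%, against 4.42% of all regions), 8 higher and 5 lower. With 1 list left out, where the spread comes from the other hairpin's 2 lists and the lone list is assumed to vary like them, it was 14 without shCTR A (6.14%, against 4.59%), 12 without shCTR B (5.26%, against 5.498%), 12 without shMettl14 A (5.26%, against 5.15%) and 18 without shMettl14 B (7.89%, against 6.45%), 10 of them higher. The Zfp share was thus above that of all regions in each setting run with all 4 lists, and below it in 1 of the 4 with a list left out. The median change of Zfp regions was −0.0638 and that of all regions 0.00212, in units of the normal score, and the Zfp value turned to 0.0575 without shMettl14 B and to 0.0113 by ranks of −log10 p.

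The region with the smallest p lay in the 3′ UTR of Zfp180 (chr7:24106035-24106451). Its fold enrichments were 17.1 and 19.2 in shCTR A and B and 6.43 and 11.3 in shMettl14 A and B, and the pileups were 25, 27, 18 and 15 fragments. The shMettl14 values lay below both shCTR values. The change was −1.66 ± 0.533 normal-score units (SE, limma, adjusted p = 0.796). It was −0.988 without shMettl14 A and −0.41 by ranks of recovered pileup.

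Zfp318, known for its control of IgD splicing in B cells, had 2 of the lowest regions. At chr17:46398743-46399450 the fold enrichments were 17.6, 13.3, 8.74 and 7.78, and at chr17:46396719-46397096 they were 8.14, 14.1, 6.87 and 4.61, in shCTR A, shCTR B, shMettl14 A and shMettl14 B. In Zfp317 (chr9:19646919-19647241) they were 15.7, 9.22, 6.31 and 6.68. The groups did not overlap in any of these 3 regions, and the limma adjusted p was 0.927 in each. By pileup they did overlap in the second Zfp318 region, with 9, 21, 10 and 6 fragments in the same order. By ranks of recovered pileup the changes shrank from −1.34 to −0.55 and from −1.45 to −0.70 in the Zfp318 regions and from −1.37 to −0.90 in Zfp317. The change was −0.797 in the second Zfp318 region without shCTR B and −0.827 in Zfp317 without shCTR A.

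Among regions higher in shMettl14, Zfp830, an mRNA splicing factor, had fold enrichments of 13.5, 10.4, 18.8 and 21.9 (chr11:82764719-82765587) and Zfp451, a SUMO ligase, 12.7, 9.98, 16.6 and 20.4 (chr1:33801875-33802752). Zfp790 had 8.94, 5.44, 13.5 and 11.7 (chr7:29830412-29830784) and Zfp976 6.06, 5.88, 12.2 and 7.98 (chr7:42609725-42610309). The groups did not overlap in these 4 regions either. By pileup they did overlap in Zfp830 (41, 27, 32 and 30 fragments) and Zfp451 (26, 23, 25 and 30 fragments), and in Zfp976 a list of each hairpin had 8 fragments. By ranks of recovered pileup the changes went from 1.37 to 0.20 in Zfp830, from 1.22 to 0.48 in Zfp451, from 1.48 to 1.24 in Zfp790 and from 1.31 to 0.84 in Zfp976. Their limma adjusted p-values ran from 0.906 to 0.951.

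**Figure D5:**
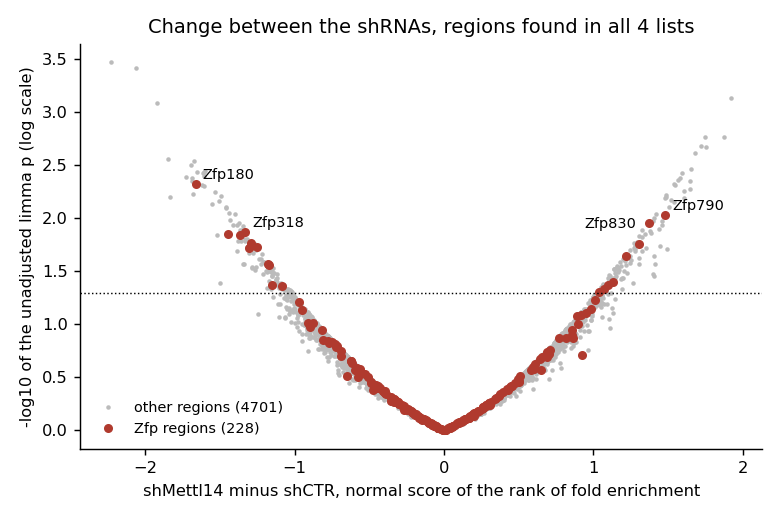
Change of each region between hairpins (x axis, shMettl14 minus shCTR, normal score of the within-list rank of fold enrichment) against −log10 of the unadjusted limma p (y axis), for 228 Zfp regions (red) and the other regions found in all 4 lists (grey). The dotted line marks an unadjusted p of 0.05. 20 Zfp regions lay above it, none with an adjusted p under 0.796.

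The deposited overlap files, 1 for each hairpin and without values, were read for presence. Of 6706 shCTR intervals, 299 (4.46%) lay on exons of 165 Zfp members, and of 6440 shMettl14 intervals, 295 (4.58%) lay on those of 166.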

How the data were processed

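Reads of m6A-RIP-seq were aligned by the authors to mm10 (GRCm38) with STAR, uniquely mapped reads were kept with SAMtools, and each IP sample was set against the matching input with MACS2. Versions and options of these tools are not given in the sources used here. The deposited lists, 1 for each IP sample, give per summit a fold enrichment (a ratio of IP pileup to background, with 1 added to each) and −log10 of the p-value and the q-value. The authors' 2 interval files hold positions only. All 6 files were used. From the deposited ratio and −log10 p, the whole-number pileup and the background were solved for, and 100% of summits matched within 0.0002. Totals of reads were not analysed here, and pileups cover counting error only.

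The titles of the samples gave hairpin and replicate letter. The members, the gene lists and the classes were chosen with earlier results of these data known. A summit belongs to a gene if it lies in an annotated exon. For positions, 1 complete coding transcript per gene was used, chosen by the longest coding sequence, and summits in exons of several genes (10 to 20 per list in Zfp genes) were counted for each member but placed only where a single transcript held them. Even spread is the mean share of length over the same transcripts. Fingers were found in the translated transcript as 2 cysteines 2 to 4 residues apart, 12 residues, and 2 histidines 2 to 6 residues apart. DRACH 5-mers were searched within 50 nt of a summit. Regions were made by merging intervals that shared at least 1 bp. Members were compared with other genes by two-sided exact sign flips over 4 lists, hairpins by two-sided exact permutation of 2 lists against 2, and ranks with limma 3.58.1 (R 4.3.3, lmFit and eBayes, Benjamini-Hochberg adjustment over 4929 regions), which was checked on simulated data. Regions and genes named were the 6 with the highest mean percentile, the 6 with the most summits, the regions of 1 hairpin (up to 6 with values; the rest by name), the 4 lowest p in each direction, preset genes, and the 3 weakest single-summit members. Alternatives were other measures of strength, windows, transcripts, a −log10 q of at least 5, equal numbers of top peaks, the replicate letter as a block, and each list left out. Python 3.11.15, numpy 2.4.6, pandas 2.3.3, scipy 1.17.1 and samtools 1.23.1 were used, with the GRCm38 genome and the GENCODE M21 annotation.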

Additional observations from a re-analysis of the deposited data

How the results depend on the processing

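The comparisons of Zfp genes with other genes, and of the array with its length, kept their direction in 51 of 51 alternatives over 7 results. Each of the 7 had the same direction in 4 of 4 lists, so leaving out 1 list could not turn it. Those settings make up much of the count, and only the others could have turned. With other genes that have a long last coding exon as the comparison, which these counts include for AAACC and GGACT only, the difference in the coding last exon turned from 25.4 to −12.7 points and that at the stop codon from −6.70 to 0.122 points. The 8 named region changes kept their direction in 64 of 64. Their groups did not overlap by fold enrichment, so leaving out 1 list or adding the replicate block could not turn the direction. Those settings make up much of this count, which is therefore no measure of stability. The ratio of Zfp summits between hairpins turned to 0.982 with equal numbers of top peaks and ran from 0.957 to 1.37 with 1 list left out. Zfp regions of shCTR only, 8 in the report, were 15 with equal numbers of top peaks, 13 with the stricter q-value and 15 to 55 with 1 list left out (55 without shCTR B), against 3.64, 2.40 and 3.14 to 11.4% of all regions (10.8% of Zfp regions and 11.4% of all without shCTR B). Those of shMettl14 only, 11 in the report, were 1, 5 and 23 to 76 (76 without shMettl14 B), against 1.03, 1.61 and 3.51 to 14.5% of all regions (15.3% of Zfp regions and 14.5% of all without shMettl14 B), and leaving out a list asks for presence in 1 list of that hairpin only or absence from 1. Of the Zfp regions compared by rank, 0 passed the adjusted p in any alternative, with smallest adjusted limma p-values of Zfp regions from 0.440 to 0.979. With 1 list left out, 1 list stands against 2 and is assumed to vary like the other hairpin's pair, so these counts are no measure of stability, nor are the 3 regions of other genes that passed without shMettl14 A. Zfp regions at an unadjusted p under 0.05, 20 in the report, were 13 by ranks of pileup (5.70%, against 4.42% of all regions) and 12 to 18 with 1 list left out (5.26 to 7.89%, against 4.59 to 6.45%). What the replicate letters stand for is not given in the sources used here. They were not taken as pairs, since A minus B correlated with r = 0.0795 between hairpins over 4929 regions, although the A list held more summits than the B list in both hairpins. With the replicate block, 0 Zfp regions passed the adjusted p and 20 were at an unadjusted p under 0.05 (8.77%, against 5.92% of all regions). With 2 lists per hairpin and median Zfp pileups of 10 to 12.5 fragments, single regions can show only large changes, and a uniform loss of m6A leaves ranks in place.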
